A study of Mus musculus with 2 samples.

Results

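The Mrc1 Folr2 macrophages were 278 of 10481 kept cells recovered from the vitreous of mouse eyes inflamed with zymosan, yeast cell wall particles. Of these, 77 of 5655 came from the library of mice that had received normal serum (NRS) and 201 of 4826 from the library of mice that had received an antiserum against CXCR2 (aCXCR2), a chemokine receptor of neutrophils. Cells were chosen by gates on their own unique molecular identifiers (UMIs), each of which stands for 1 counted transcript. The first gate asked that Csf1r, C1qa, C1qb, C1qc, Ms4a6c and Ccr2 sum to at least 10 per 10000 UMIs of the cell and to at least 5 UMIs. The second asked that Mrc1 and Folr2 sum to at least 5 per 10000 and to at least 4 UMIs. Cells that passed the first gate and not the second, 452 in NRS and 1507 in aCXCR2, are called the other gated cells. The gates were read from the same libraries, so values of the 8 gate genes only describe the choice.

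Macrophages that carry MRC1 and FOLR2 are known from the linings of the eye and brain and from many other tissues, where they lie near vessels and clear debris and macromolecules. MRC1 is a lectin receptor that binds mannose and takes up glycoproteins, and FOLR2 is a folate receptor of macrophages. Ccl8 and Ccl12 encode chemokines of the monocyte chemoattractant group, Pf4 and Ppbp encode CXC chemokines best known from platelet granules, and Selenop encodes the secreted protein that carries selenium between cells. The peptide cut from the Ppbp product is a ligand of CXCR2.

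Both groups were C57BL/6 mice given zymosan into the eye, and they differed in the serum given. Vitreous fluid and a saline rinse of the retina were taken, cells were selected with Ly6G magnetic beads, and RNA was captured in droplets with the 10x Chromium 3' kit. Each group was 1 library. How many mice each library pooled, their sex and age, and the time of collection are not stated in the labels used here. Because each group is a single library, differences were not tested and carry no p-value, and the 95% intervals (exact Poisson for a level, Clopper-Pearson for a share, exact conditional for a ratio) cover counting error only. Where a pair of values is given, the NRS value comes first.

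Ppbp with Pf4 and Ccl12 with Ccl8 are pairs of neighbouring genes. The first pair was higher in the aCXCR2 macrophages and the second was higher than in the other gated cells in both libraries, so the 250 bases before the start of each are shown, from RefSeq on GRCm38.p6. Ppbp (chr5:90768518-90770063, plus strand) ends 2371 bases before Pf4 (chr5:90772435-90773383, plus strand) begins, and Ccl12 (chr11:82101845-82103400, plus strand) ends 11784 bases before Ccl8 (chr11:82115185-82116799, plus strand). Capitals mark TATAAA, the TATA box core, and AGGAAGT, a core bound by ETS factors such as PU.1, on either strand (ACTTCCT on the strand printed, and TTTATA for the first). All are protein-coding genes, and the printed windows are chr5:90768268-90768517, chr5:90772185-90772434, chr11:82101595-82101844 and chr11:82114935-82115184.
Ppbp: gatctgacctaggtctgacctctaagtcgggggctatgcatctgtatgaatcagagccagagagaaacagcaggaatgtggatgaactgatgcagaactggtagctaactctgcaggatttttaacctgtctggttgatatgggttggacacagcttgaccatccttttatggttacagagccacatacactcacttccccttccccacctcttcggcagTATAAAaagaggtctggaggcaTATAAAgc
Pf4: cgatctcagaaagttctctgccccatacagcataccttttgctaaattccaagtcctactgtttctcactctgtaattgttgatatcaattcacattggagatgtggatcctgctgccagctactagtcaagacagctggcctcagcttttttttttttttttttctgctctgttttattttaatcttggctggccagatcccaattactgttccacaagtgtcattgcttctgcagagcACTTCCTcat
Ccl12: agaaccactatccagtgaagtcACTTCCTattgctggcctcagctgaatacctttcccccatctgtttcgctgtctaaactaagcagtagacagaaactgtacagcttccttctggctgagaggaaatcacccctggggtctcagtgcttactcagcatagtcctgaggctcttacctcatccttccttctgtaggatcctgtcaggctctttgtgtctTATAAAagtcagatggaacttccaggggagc
Ccl8: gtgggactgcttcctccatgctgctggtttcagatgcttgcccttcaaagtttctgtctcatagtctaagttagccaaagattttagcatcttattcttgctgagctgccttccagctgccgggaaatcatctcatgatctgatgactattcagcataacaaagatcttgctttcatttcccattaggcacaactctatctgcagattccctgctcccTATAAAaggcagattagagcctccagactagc
The Ppbp window held TATAAA at 30 to 25 and again at 8 to 3 bases before the start, and the Ccl12 and Ccl8 windows held it at 31 to 26 and 32 to 27 bases. The Pf4 window held AGGAAGT on the minus strand at 10 to 4 bases before the start, and the Ccl12 window at 228 to 222 bases. TGANTCA, the AP-1 core, was searched as well and matched in the Ppbp window alone, at 204 to 198 bases. Over 32851 promoter windows of the same length, 12.4% held TATAAA, 7.69% AGGAAGT and 6.75% TGANTCA. These matches are a description of the letters.

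The NRS library held 7314 barcodes and 61386486 UMIs, and the aCXCR2 library 5551 barcodes and 85748842 UMIs. The macrophages were deep cells, with a median of 33135 UMIs in NRS (range 2138 to 75375) and 35196 in aCXCR2 (range 1837 to 69286), against 4759 and 10383.5 over all kept cells. Their summed UMIs were 2457484 and 7130163. Mitochondrial UMIs had a median of 4.57% and 4.12%. Both libraries held 101 barcodes in common, and 0 of them were among the macrophages. The doublet caller did not work on either library, so doublets must be taken to remain.

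The macrophages made up 1.36% of kept cells in NRS (interval 1.08 to 1.70%) and 4.16% in aCXCR2 (3.62 to 4.77%). Of the cells that passed the first gate they were 14.6% of 529 in NRS and 11.8% of 1708 in aCXCR2. The larger share in aCXCR2 therefore came with more cells in the first gate, and not with a larger part of those cells passing the second. Both gates need a number of UMIs and so depend on depth. When every cell was first thinned to 2000 UMIs, 17 of 4797 NRS cells (0.354%, 0.207 to 0.567%) and 26 of 4572 aCXCR2 cells (0.569%, 0.372 to 0.832%) passed, and those intervals overlapped. The bead selection and the cell filter can also set these shares.

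The gates cut through a continuous range of Mrc1 and Folr2. The macrophages held a median of 25 Mrc1 and Folr2 UMIs in NRS and 26 in aCXCR2, or 8.63 and 7.397 per 10000. Just inside, 18 NRS and 58 aCXCR2 cells lay at 5 to 6 per 10000. Just outside, 19 NRS and 79 aCXCR2 cells of the first gate lay at 4 to 5 per 10000. The counts on both sides of the edge were of like size.

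Genes outside the gates describe the labelled identity further. Of the label's markers, Ccl8, Pf4 and Selenop were present in both libraries at the levels given below. The macrophages and their label were chosen with earlier results of these data known, so the presence of these markers is no check of the label. These markers were not confined to the macrophages. Of their UMIs in kept cells, the other gated cells held 24.8% and 40.7% for Ccl8 and 67.4% and 60.3% for Pf4. For Selenop the shares were 54.0% and 71.6%. Of 12 genes of border and tissue-resident macrophages, 10 had UMIs in NRS and 11 in aCXCR2. Their summed level was 6226 CPM (counts per 1000000, here UMIs over all UMIs of the cells summed) in NRS and 4809 CPM in aCXCR2. It was at least 10 per 10000 in 77 of 77 and 200 of 201 cells. The other gated cells carried the same list at 2433 and 2382 CPM, so its presence alone does not set the macrophages apart. Several defining genes of resident macrophages were nevertheless at or near 0. Lyve1, a hyaluronan receptor of perivascular macrophages, had 1 and 10 UMIs, and Timd4, a receptor for dying cells, 0 and 18, with the aCXCR2 UMIs in 1 cell each. Vsig4, the complement receptor of resident macrophages, had 0 in both. Of 9 microglial genes, Sall1 and Siglech were at 0 in both libraries and the others had UMIs. That list summed to 383 and 149 CPM, against 579 and 256 CPM in the other gated cells.

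Markers of other cells differed in level by list. The labels call the sorted cells Ly6G+, but Ly6g itself stood at 0.814 and 0.982 CPM in the macrophages, against 14.9 and 126 CPM in neutrophil-gated cells. Cxcr2 stood at 0.407 and 10.1 CPM. The 5 T and NK cell genes were all at 0, as were 7 of 9 platelet genes in each library, 3 of 4 B cell genes, and 5 and 4 of 7 dendritic cell genes. The summed levels of the dendritic list (6.51 and 10.8 CPM), platelet list (2.85 and 1.26 CPM), erythroid list (0.814 and 4.21 CPM), B cell list (15.9 and 6.59 CPM), lens list (15.5 and 5.19 CPM) and pigmented cell list (1.63 and 0.2805 CPM) were under 20 CPM. The vessel list stood higher in aCXCR2 (19.9 and 61.8 CPM), as it did in the other gated cells (20.5 and 59.7 CPM). The largest of these sums was that of neutrophil genes (1524 and 2170.5 CPM, from 0 to 1354 and from 1.91 to 516 per 10000 over cells), and rod genes had less (233 and 61.8 CPM, from 0.343 to 81.1 and from 0 to 68.6 per 10000). Rod transcripts in sum were thus higher in the NRS macrophages, and their part in the results below was not tested. Müller glia genes summed to 464 and 409 CPM, nearly all of it Glul (455 and 407 CPM), a glutamine synthetase that macrophages also carry.

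Mrc1 (827 and 759 CPM) lay at a like level in both libraries, while Folr2 lay at 186 and 98.7 CPM. Mrc1 lies at chr2:14229392-14332057 on the plus strand and Folr2 at chr7:101839988-101857194 on the minus strand in the GENCODE annotation. The macrophages held 70.1% and 55.04% of all Mrc1 UMIs of the kept cells and 71.9% and 46.3% of the Folr2 UMIs. Of the first-gate genes, the complement genes C1qa (4988 and 2545 CPM), C1qb (5224 and 3512 CPM) and C1qc (3503 and 2059 CPM) were lower in aCXCR2. Ccr2, the receptor for monocyte chemoattractants, was higher there, at 26.04 and 84.7 CPM. Csf1r, the receptor for the macrophage growth factor, was at 1196 and 1053 CPM, and Ms4a6c at 573 and 534 CPM.

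Between the libraries, the macrophages of aCXCR2 held more transcript of Arg1, Pf4, Ppbp, MHC class II genes and inflammatory monocyte genes. Those of NRS held more of Ccl8, Selenop, Gas6, Igf1 and the microglial gene Cx3cr1. Of 5742 genes with at least 20 CPM in the macrophages of 1 library, 207 (3.61%) were at least 2-fold higher in aCXCR2 and 163 (2.84%) at least 2-fold lower, and the median log2 ratio was 0.02. Ratios below are aCXCR2 over NRS unless said otherwise. Genes of the lists that are named beyond the fixed rule were chosen after their values were seen.

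Ccl8, the first of the label's chemokines, was lower in the aCXCR2 macrophages. It stood at 5365 CPM in NRS (interval 5274 to 5458) and 1483 CPM in aCXCR2 (1455 to 1512), a log2 ratio of -1.85 (-1.89 to -1.82). Single NRS macrophages ran from 0 over a median of 45.2 to 270.3 Ccl8 UMIs per 10000, and those of aCXCR2 from 0 over a median of 0 to 277. The groups overlapped over their whole range, but most NRS cells were high and most aCXCR2 cells held none or few. At least 10 per 10000 was reached by 59 of 77 and 44 of 201 cells. The macrophages held 73.6% of all Ccl8 UMIs in NRS and 58.4% in aCXCR2. In the other gated cells Ccl8 was also lower in aCXCR2, at 411 and 165 CPM.

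The order held at equal depth. After each cell was thinned to 1000 UMIs, 79.2% of NRS and 24.9% of aCXCR2 macrophages had a Ccl8 UMI, against 90.9% and 48.8% unthinned. Among rods, which should lack the gene, the thinned shares were 1.01% and 0.781%. Rods had median depths of 5289 and 5273 UMIs, and 92 and 47 of them were too shallow to thin, as were 0 and 0 macrophages. The Ccl8 log2 ratio kept its direction in every alternative run and ranged from -2.598 to -1.45.

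The monocyte chemokine list held Ccl6, Ccl9 and Ccl24 besides the monocyte chemoattractant genes Ccl2, Ccl7, Ccl8 and Ccl12. Of its 7 genes, 6 were tested and 1 was at least 2-fold higher and 1 lower in aCXCR2, with a median log2 ratio of -0.00088. Ccl12 was at 158 and 103 CPM (log2 ratio -0.62) and Ccl7 at 94.4 and 99.7 CPM (0.08). Both lie on chromosome 11 with Ccl8 and Ccl2. Ccl2, which draws monocytes through CCR2, was at 109 and 104 CPM. Ccl9, a chemokine of macrophages, was the member at least 2-fold higher, at 462 and 1108 CPM (1.26), and Ccl6 was at 2172 and 2703 CPM (0.32). Ccl24, an eosinophil attractant, was below the 20 CPM minimum, at 10.2 and 19.1 CPM. The lower Ccl8 was therefore not shared by its neighbours to that size.

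Pf4 and Ppbp went the other way from Ccl8. Pf4 was at 3411 CPM in NRS (3338 to 3485) and 10516 CPM in aCXCR2 (10441 to 10592), a log2 ratio of 1.62 (1.59 to 1.66). NRS cells ran from 0.8499 over a median of 25.95 to 171 per 10000, and aCXCR2 cells from 0 over 86.1 to 298. The groups overlapped, with aCXCR2 cells shifted up as a whole, and 59 of 77 and 187 of 201 cells were at 10 per 10000 or above. The other gated cells showed no such shift, at 3141 and 2921 CPM. Thinned to 1000 UMIs, 83.1% and 93.5% of the macrophages had a Pf4 UMI, and 2.75% and 8.98% of the rods.

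Ppbp had the largest ratio of the genes named by rule. It was at 5.29 CPM in NRS, from 13 UMIs, and 773 CPM in aCXCR2, from 5514 UMIs, a log2 ratio of 7.19 (6.42 to 8.102). NRS cells ran from 0 over a median of 0 to 1.91 per 10000, and aCXCR2 cells from 0 over 0.1601 to 168. The transcript sat in few cells. The 24 aCXCR2 macrophages at 10 per 10000 or above held 88.9% of its UMIs, and no NRS macrophage reached that level. All 24 also had Pf4 at 10 per 10000 or above, with a Pf4 median of 115 against 80.4 in the other 177, and an Arg1 median of 54.4 against 28.3. Of the Ppbp UMIs of kept cells, the macrophages held 66.4% in aCXCR2 and 3.59% in NRS, there 13 of 362. Of all UMIs of kept cells they held 7130163 of 81812329 in aCXCR2 and 2457484 of 47553685 in NRS. Platelet genes other than these chemokines summed to 2.85 and 1.26 CPM in the macrophages, with 7 of 9 at 0 in each library.

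**Figure D1:**
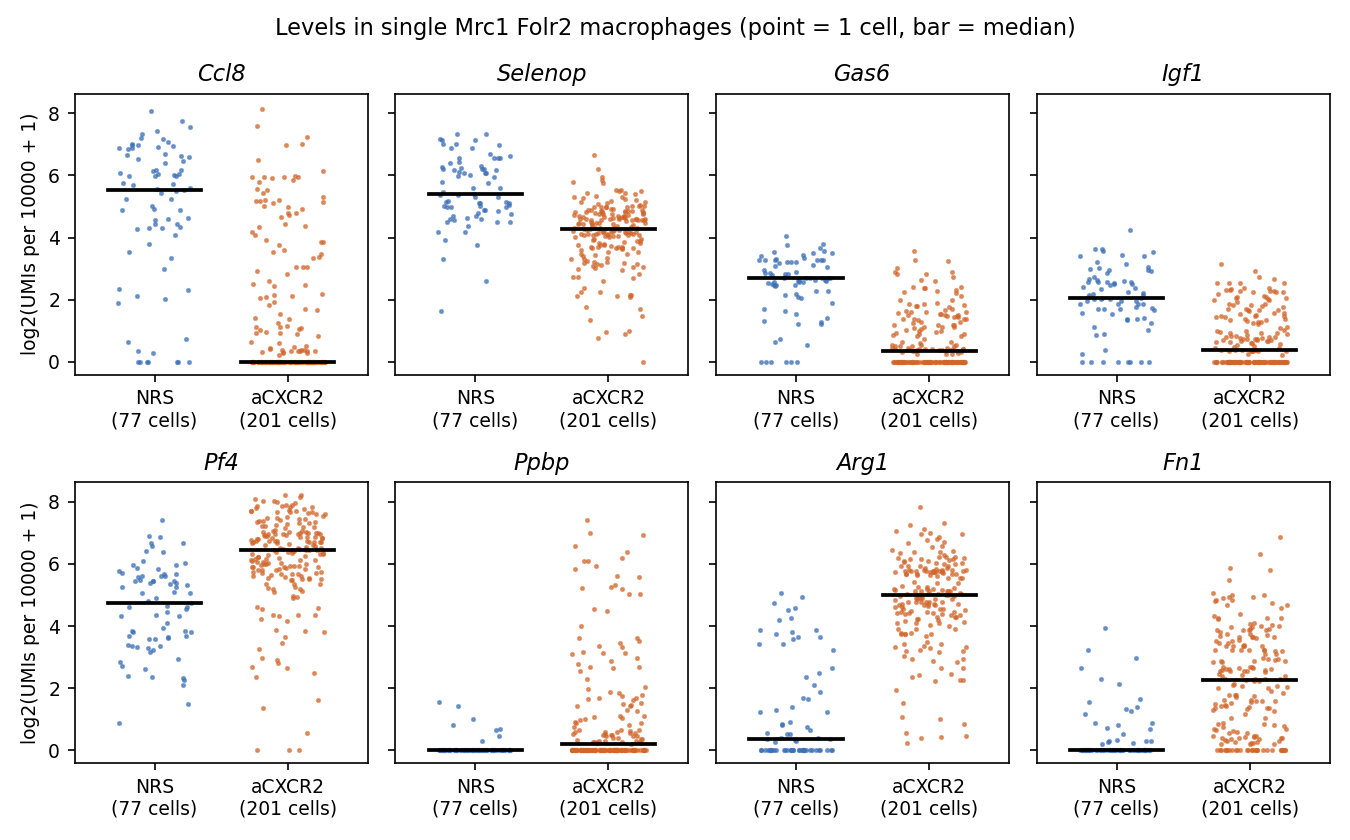
Each point is 1 macrophage of the NRS or aCXCR2 library, placed by the log2 of 1 plus the UMIs per 10000 of the named gene, and the bar is the median over cells. Ccl8, Selenop, Gas6 and Igf1 have the higher median in NRS and Pf4 and Arg1 in aCXCR2, and the cells of both libraries overlap for each gene.

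Of 11 other chemokine genes, 10 were tested, 5 were at least 2-fold higher in aCXCR2 and 1 lower, with a median log2 ratio of 0.92. Besides Pf4 and Ppbp the higher ones were Cxcl3 (13.02 and 286 CPM) and Cxcl2 (81.8 and 499.7 CPM), ligands of CXCR2, and Ccl5 (149 and 495 CPM), which draws T cells and monocytes. In NRS 1 cell held 46.9% of the Cxcl3 and 1 cell 40.8% of the Cxcl2 UMIs. Ccl3, a macrophage inflammatory protein, was the lower one, at 154 and 37.2 CPM (-2.05). Cxcl10, an interferon-induced chemokine, was at 109.9 and 81.3 CPM, but 1 NRS cell held 51.9% of its UMIs. Its log2 ratio of -0.43 became 0.36 without the cell of each library with the most, and 2.44 with a stricter Mrc1 and Folr2 gate.

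Selenop, the other label marker, was lower in aCXCR2. It stood at 5231 CPM in NRS (5141 to 5322) and 2098 CPM in aCXCR2 (2064 to 2131), a log2 ratio of -1.32 (-1.35 to -1.28). NRS cells ran from 2.12 over 41.7 to 161 per 10000, and aCXCR2 cells from 0 over 18.5 to 101. The groups overlapped, and 74 of 77 and 160 of 201 cells were at 10 per 10000 or above. Unlike Ccl8 it was seen in nearly every cell of both libraries, in 100% and 99.5% unthinned and in 97.4% and 75.6% after thinning, against 2.29% and 1.56% of rods. It was lower in the other aCXCR2 gated cells too, at 1521 and 912 CPM. Of 8 selenoprotein genes, all tested, Selenop was the 1 at least 2-fold lower and 0 were higher, with a median of -0.14. The antioxidant enzymes Gpx1 (-0.12) and Gpx4 (0.21) lay near an even ratio.

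Of 12 resident macrophage genes, 9 were tested, 2 were at least 2-fold higher in aCXCR2 and 4 lower, with a median log2 ratio of -0.33. The lower ones were Stab1 (1236 and 539.5 CPM), a scavenger receptor, Ms4a7 (1635 and 776 CPM), a marker of border macrophages, Gas6 (569 and 121 CPM), the ligand that bridges dying cells to MERTK and AXL, and Cbr2 (94.4 and 18.8 CPM), a carbonyl reductase. Among the higher was Cd163 (32.6 and 88.2 CPM), the receptor for haemoglobin and haptoglobin. In NRS 1 cell held 45.0% of the Cd163 UMIs. F13a1, the coagulation factor XIII subunit of macrophages (-0.01), Dab2, an endocytic adaptor (0.34), and the transcription factor Maf (-0.33) lay under 2-fold. The resident list therefore split in direction, and its summed level per cell overlapped, with a median of 57.04 per 10000 in NRS and 44.5 in aCXCR2.

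Gas6 showed the same pattern cell by cell. NRS cells ran from 0 over 5.43 to 15.5 per 10000 and aCXCR2 cells from 0 over 0.271 to 10.8, a log2 ratio of -2.24 (-2.36 to -2.11). Rods, which also carry Gas6 transcript, had 89.8 and 91.2 CPM, below the macrophages in both libraries. Igf1, a growth factor of macrophages and microglia, ran from 0 over 3.199 to 17.7 per 10000 in NRS and from 0 over 0.304 to 7.903 in aCXCR2, with 446 and 112 CPM and a log2 ratio of -1.996 (-2.13 to -1.86). Both were lower in the other aCXCR2 gated cells as well, Gas6 at 157 and 32.9 CPM and Igf1 at 185 and 36.3 CPM.

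Of 17 growth and neurotrophic factor genes, 8 were tested, 2 were at least 2-fold higher in aCXCR2 and 4 lower, with a median of -0.99. With Igf1, the lower ones were Gdf15 (64.3 and 7.85 CPM), a stress-induced cytokine, Pdgfc (45.2 and 17.3 CPM) and Vegfb (55.3 and 21.7 CPM). The higher ones were Vegfa (14.2 and 38.3 CPM), which drives vessel growth, with 62.9% of its NRS UMIs in 1 cell, and Osm (1.63 and 20.2 CPM), a cytokine of the interleukin-6 family. Vegfb was under 2-fold with a stricter Mrc1 and Folr2 gate (-0.89). Tgfb1 was at 288 and 313 CPM. Among factors known for acting on retinal neurons, Ocm (oncomodulin) had 0 UMIs in either library. Bdnf had 1 UMI in NRS and Cntf 1 in aCXCR2.

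Arg1, the arginase that breaks down arginine and is known from alternatively activated macrophages, was higher in aCXCR2. It stood at 468 CPM in NRS (441 to 496) and 3863 CPM in aCXCR2 (3817 to 3908), a log2 ratio of 3.05 (2.96 to 3.13), and lies at chr10:24915221-24927484 on the minus strand. NRS cells ran from 0 over 0.302 to 32.7 per 10000 and aCXCR2 cells from 0.176 over 30.8 to 225. Most NRS cells were near 0, and all aCXCR2 cells had at least 1 UMI, though the ranges overlapped. At 10 per 10000 or above were 14 of 77 and 168 of 201 cells. After thinning, 22.1% and 83.6% of the macrophages had an Arg1 UMI, against 3.67% and 7.81% of rods. The other gated cells were high in both libraries, at 3371 and 3459.9 CPM, so the NRS macrophages stood apart from them and the aCXCR2 macrophages did not.

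Of 13 alternative activation genes, 6 were tested, 4 were at least 2-fold higher in aCXCR2 and 1 lower, with a median of 1.24. With Arg1 and Cd163 the higher ones were Chil3 (14.6 and 49.1 CPM), a chitinase-like protein, and Il1rn (63.5 and 130.2 CPM), the interleukin-1 receptor antagonist. Il1rn was under 2-fold in 4 of the alternatives, with a range of 0.43 to 3.55. The lower one was the lectin gene Clec10a (97.3 and 25.4 CPM). Il4ra, the interleukin-4 receptor chain, was at 272 and 436 CPM, and Retnla, a usual companion of Arg1 in alternative activation, had 0 UMIs in both.

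Of 12 classical activation genes, 7 were tested, 3 were at least 2-fold higher and 1 lower, with a median of 0.01. Higher were Il1b (49.6 and 918 CPM, log2 ratio 4.21), the inflammatory cytokine, Nos2 (3.66 and 52.03 CPM), which competes with arginase for arginine, and Cd86 (20.8 and 42.8 CPM), which helps activate T cells. Tnf was lower, at 26.9 and 12.1 CPM. In NRS 1 cell held 44.3% of the Il1b UMIs, and the ratio ranged from 3.401 to 5.499 over the alternatives. Il1b is also abundant in neutrophils, and rods had a thinned share of 22.3% and 21.5% with a UMI, against 3.896% and 35.8% of the macrophages. The NRS share lay below that of the rods, and how much of it is background was not tested. Arg1 and Il1b were thus both higher in aCXCR2.

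**Figure D2:**
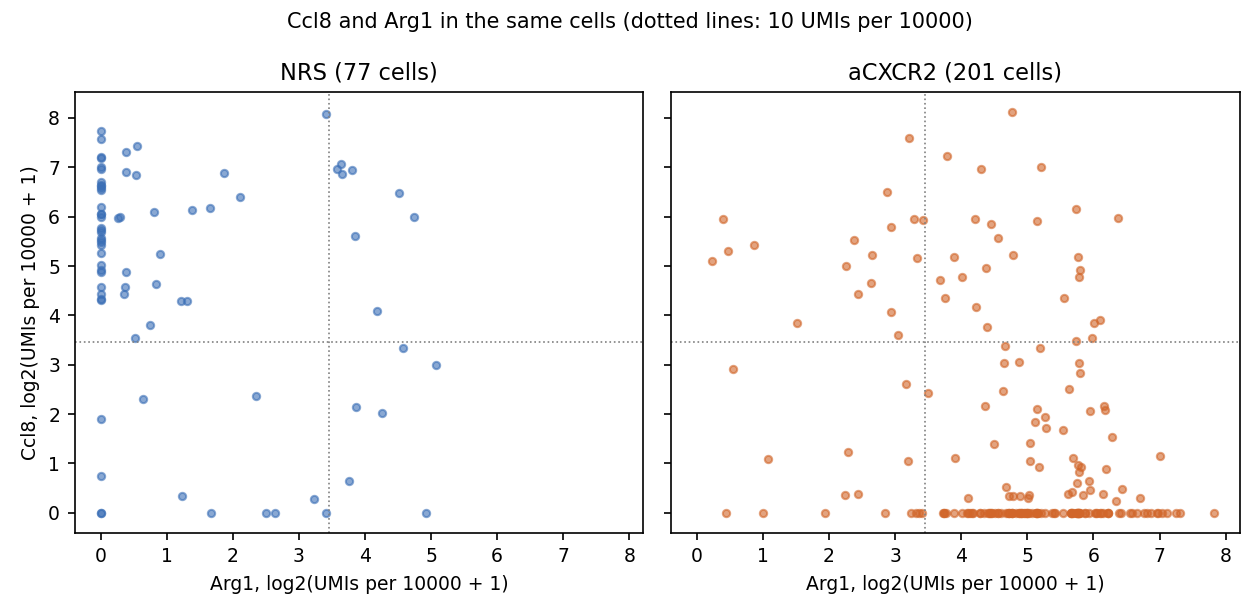
Each point is 1 macrophage, placed by its Ccl8 and Arg1 UMIs per 10000 on log2 scales after adding 1, with dotted lines at 10 per 10000. In NRS 51 of 77 cells are above the line for Ccl8 alone and in aCXCR2 142 of 201 for Arg1 alone.

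Ccl8 and Arg1 were weakly and negatively related over cells. In NRS 51 macrophages were at 10 per 10000 or above for Ccl8 alone, 6 for Arg1 alone, 8 for both and 12 for neither. In aCXCR2 the counts were 18, 142, 26 and 15. Of the cells high in the rarer gene of a library, 8 of 14 in NRS and 26 of 44 in aCXCR2 were high in both. These shares were smaller than those over all cells. There 59 of 77 were high in Ccl8 in NRS and 168 of 201 in Arg1 in aCXCR2. Spearman's rank correlation across cells was -0.22 over 77 and -0.27 over 201, in cells that share a library and its depth. The 44 aCXCR2 cells high in Ccl8 had a median of 14.5 Arg1 UMIs per 10000 against 34.3 in the other 157, 24.8 against 16.9 for Selenop, 2.07 against 0 for Gas6, and 7.64 against 24.6 for the summed inflammatory monocyte genes. Their median depth was 43756 against 34352 UMIs. The 59 high and 18 low NRS cells differed the same way for Selenop (53.2 and 30.9), Arg1 (0 and 4.96) and the monocyte sum (1.95 and 5.74).

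Genes of inflammatory monocytes and of antigen presentation were higher in the aCXCR2 macrophages. Of 10 inflammatory monocyte genes, 9 were tested, 8 were at least 2-fold higher and 1 lower, with a median of 2.53. Fn1, fibronectin, was at 78.9 and 707 CPM, Hp, haptoglobin, at 140.0 and 807 CPM, and Thbs1, thrombospondin 1, at 86.7 and 515 CPM. The coagulation factor gene F10 (19.5 and 129 CPM), the proteoglycan gene Vcan (4.88 and 53.01 CPM), Chil3, and the monocyte surface gene Ly6c2 (41.9 and 104 CPM) with Plac8 (24.01 and 128 CPM) made up the rest. In NRS 1 cell held 76.3% of the Plac8 UMIs and 1 cell 69.9% of the Ly6c2 UMIs, so the remaining NRS cells held the smaller part of both. The lower gene, Ms4a4c (38.7 and 11.2 CPM), had 69.5% of its NRS UMIs in 1 cell. Per cell the summed list had a median of 2.16 per 10000 in NRS and 19.1 in aCXCR2, and 8 of 77 and 149 of 201 cells were at 10 or above. In the other gated cells the list was higher than in the macrophages of the same library, at 2227 and 4800.0 CPM.

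Of 7 MHC class II genes, 6 were tested, 4 were at least 2-fold higher in aCXCR2 and 0 lower, with a median of 2.39. They were the class II chains H2-Aa (159.9 and 848 CPM), H2-Ab1 (140.0 and 949 CPM) and H2-Eb1 (90.3 and 555 CPM) and their invariant chain Cd74 (489 and 2534 CPM). The other gated cells were higher in aCXCR2 as well, the summed list standing at 2118 and 7796 CPM there and at 1010.4 and 5136 CPM in the macrophages. The summed list per cell ran from 0 over 1.702 to 499 per 10000 in NRS and from 0 over 6.05 to 526 in aCXCR2. A part of the cells carried nearly all of it. The 14 NRS and 84 aCXCR2 macrophages at 10 per 10000 or above held 86.8% and 96.5% of the list's UMIs. In aCXCR2 those 84 cells had lower Pf4 than the other 117 (median 58.6 and 108 per 10000) and higher Il1b (5.52 and 0.867). Their summed monocyte genes were higher (28.4 and 15.5) and their summed resident genes lower (38.5 and 51.1).

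Lipid handling genes differed in both directions. Of 12, 11 were tested, 2 were at least 2-fold higher in aCXCR2 and 4 lower, with a median of -0.63. The summed list was lower in the other aCXCR2 gated cells as well. It stood at 51209 and 19963 CPM there and at 51183 and 30286 CPM in the macrophages. Apoe, the apolipoprotein of macrophages, ran from 104 over 379 to 1015 per 10000 in NRS and from 0.285 over 149 to 859.8 in aCXCR2, or 41462 and 17469.7 CPM (-1.25). Gpnmb, a glycoprotein of lipid-laden macrophages, was at 421 and 81.6 CPM, Spp1, osteopontin, at 815 and 284 CPM, and Lipa, the lysosomal lipase, at 443 and 202 CPM. The lipid receptor gene Trem2 was at 857 and 486 CPM (-0.82), under 2-fold. Of the fatty acid binding proteins, Fabp4 was higher, at 21.6 and 88.2 CPM (2.03). Fabp5 was at 4656 and 9486 CPM (1.03), a ratio that was just under 2-fold with the stricter cell filter (0.94) and with cells weighted equally (0.93).

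Of 9 iron and haem genes, all tested, 2 were at least 2-fold higher in aCXCR2 and 1 lower, with a median of 0.08. Hmox1, the haem oxygenase that frees iron from haem, was at 898 and 3330.2 CPM (1.89), with a median per cell of 5.24 and 9.43 per 10000. Cd163 was the other higher one, and the transferrin receptor gene Tfrc the lower, at 130.2 and 34.6 CPM. Of 11 scavenger and endocytic receptor genes, 8 were tested, 1 was at least 2-fold higher and 3 lower, with a median of -0.0019. The fatty acid receptor Cd36 was lower (47.6 and 4.77 CPM), as were Stab1 and Marco. Marco, a receptor for microbial particles, was at 738 and 245 CPM, but 45.4% of its NRS UMIs came from 1 cell and its ratio turned from -1.59 to 1.34 with the stricter cell filter and 0.75 with the stricter gate. In both libraries it lay in few cells, 6 and 13 at 10 per 10000 or above, which held 92.7% and 90.9% of its UMIs.

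Of 9 microglial genes, 7 were tested, 0 were at least 2-fold higher in aCXCR2 and 4 lower, with a median of -1.74. The fractalkine receptor gene Cx3cr1 was at 90.7 and 4.07 CPM (-4.48) and was seen in 23 of 77 and 10 of 201 cells. The orphan receptor gene Gpr34 (22.4 and 2.805 CPM), Olfml3 (39.9 and 4.35 CPM) and the purine receptor gene P2ry13 (21.97 and 6.59 CPM) were the other lower ones. P2ry12, another purine receptor, was at 28.9 and 20.9 CPM.

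Of 11 interferon-induced genes, 10 were tested, 0 were at least 2-fold higher in aCXCR2 and 5 lower, with a median of -1.12. Lower were the antiviral gene Rsad2 (61.4 and 10.4 CPM), the factor Irf7 (184 and 59.7 CPM), Ifit2 (38.7 and 4.07 CPM), Ifit3 (36.6 and 6.17 CPM) and Ifit1 (38.3 and 14.4 CPM). Ifitm3, a membrane protein that hinders virus entry, was at 1685 and 1812 CPM. The summed list was therefore alike, at 2627 and 2646 CPM, although its less abundant genes were lower.

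By the rule fixed for naming genes, the 12 highest ratios were those of Ppbp, of Itga1, an integrin (0.814 and 50.2 CPM), of Ltb4r1, the leukotriene B4 receptor (1.22 and 70.1 CPM), then of the syndecan gene Sdc1 (8.14 and 107 CPM), Tarm1 (6.92 and 86.95 CPM) and the prostaglandin E synthase Ptges (12.6 and 149 CPM). Itga1 and Ltb4r1 had 2 and 3 UMIs in NRS, so their log2 ratios of 5.95 (4.08 to 8.998) and 5.84 (4.29 to 8.13) have wide intervals. Vcan, Timp1, an inhibitor of matrix proteases (6.92 and 72.5 CPM), Fn1, Arg1, Ass1, which makes the precursor of arginine (8.95 and 64.1 CPM), and the gap junction gene Gja1 (35.8 and 246 CPM) completed them. In the other gated cells 9 of these 12 were at least 2-fold higher in aCXCR2 as well, and the log2 ratios of Ptges, Fn1 and Arg1 were 0.34, 0.48 and 0.04.

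The 12 lowest were Cd5l (64.3 and 0.982 CPM), a secreted macrophage protein, Cx3cr1, the secreted peroxidase Gpx3 (79.8 and 6.45 CPM), Cd4 (72.02 and 6.73 CPM), Sulf2 (64.7 and 6.45 CPM), Fxyd2 (132 and 15.6 CPM), the microglial and macrophage gene Fcrls (328 and 41.2 CPM), Pmepa1 (70.4 and 9.96 CPM), the lysozyme gene Lyz1 (67.96 and 10.7 CPM), Rsad2, Syngr1 (199 and 36.9 CPM) and the adaptor gene Blnk (68.4 and 13.04 CPM). Of the Cd5l and Lyz1 UMIs in NRS, 60.8% and 46.1% came from 1 cell each, and without the cell of each library with the most the log2 ratios of -6.03 and -2.67 became -5.17 and -1.98. In the other gated cells 10 of these 12 were at least 2-fold lower in aCXCR2 as well, and the log2 ratios of Lyz1 and Rsad2 were -0.13 and -0.75. Each of these 24 genes stayed at least 2-fold apart in the same direction in every alternative that gave it a value. Another 35 genes at least 2-fold apart were not named because they were over 2 times higher outside the macrophages.

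**Figure D3:**
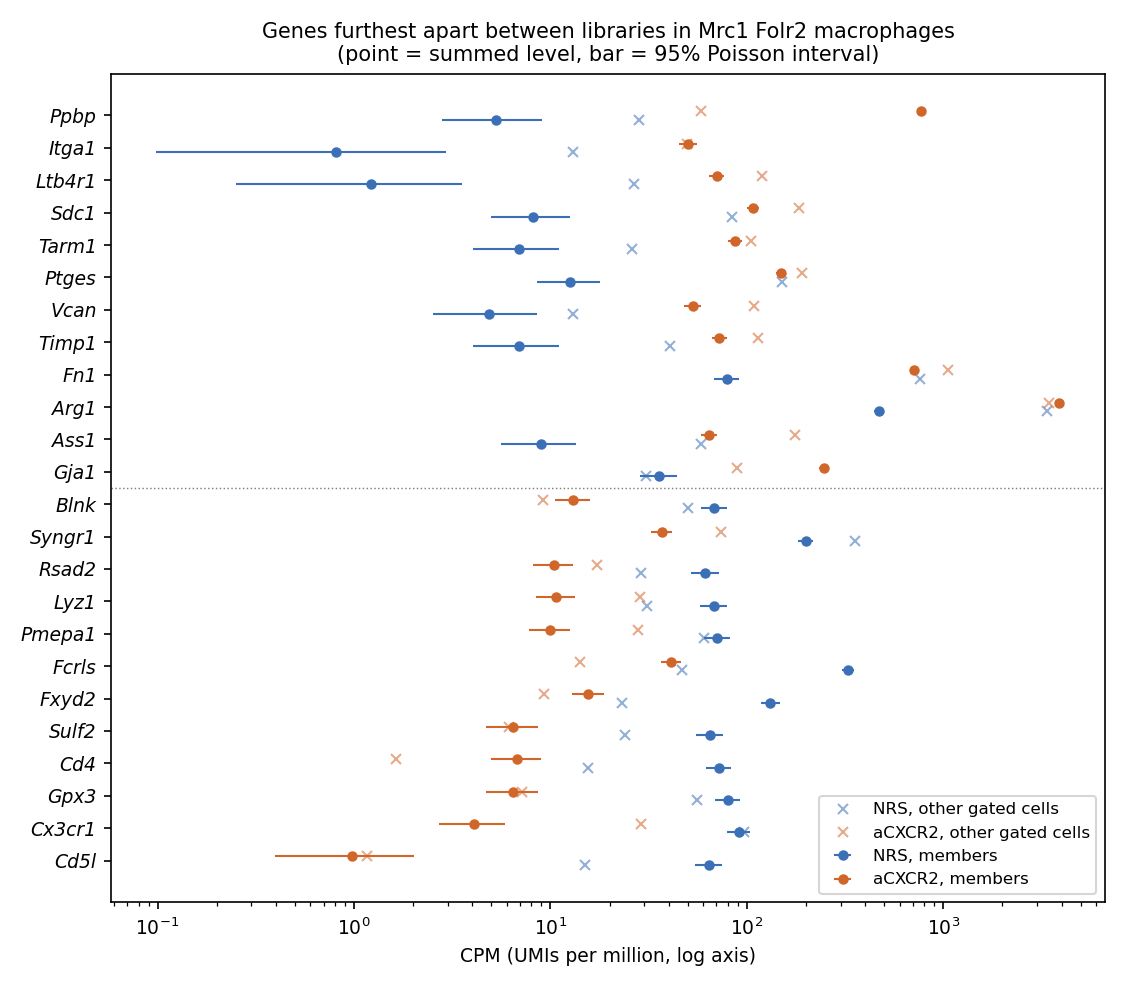
The horizontal axis is CPM on a log scale. Dots are the macrophages of NRS and aCXCR2 with 95% Poisson bars and crosses the other gated cells, for the 12 genes with the highest ratio of aCXCR2 over NRS above the dotted line and the 12 with the lowest below it, and Ppbp spans the widest gap between the libraries.

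Set against the other gated cells of the same library, the macrophages carried more Ccl8, Ccl12, Ccl7, Gas6, Stab1 and Fcrls and less Spp1, Gpnmb and Cd9 in both libraries. The gates divided these cells by Mrc1 and Folr2, so these ratios describe what goes with the gate. In NRS 281 of 5735 genes (4.9%) were at least 2-fold higher in the macrophages and 214 (3.73%) lower, with a median log2 ratio of 0.10. In aCXCR2 the counts were 83 of 5599 (1.48%) higher and 97 (1.73%) lower, and the median was 0.01. The other gated cells were shallower in NRS, at a median of 15811 UMIs, than in aCXCR2, at 28985, and the part of depth in those counts was not tested.

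The 12 genes highest over the other gated cells in both libraries were led by chemokines. Ccl8 had log2 ratios of 3.71 in NRS and 3.17 in aCXCR2, Ccl12 of 3.55 and 2.41, and Ccl7 of 2.47 and 2.12. The elastase-like gene Cela1 (2.05 and 1.93), Gas6 (1.86 and 1.88), Slc9a9 (2.14 and 1.66), Tmem8 (1.61 and 1.77) and the antibody receptor Fcgrt (2.18 and 1.61) followed. Igfbp4, which binds insulin-like growth factors (2.69 and 1.602), the co-receptor Nrp1 (1.49 and 1.48), Stab1 (1.98 and 1.36) and Arhgap19 (1.35 and 1.41) completed the set. Fcrls, outside that set, had 2.81 and 1.54.

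Of the monocyte chemokine list, 4 of 6 tested genes were at least 2-fold higher than in the other gated cells in NRS (median 1.903) and 4 of 6 in aCXCR2 (1.77), with 0 lower. Of the resident macrophage genes, 7 of 9 were higher in NRS (median 1.86) and 6 of 8 in aCXCR2 (1.19), with 0 lower. Of the inflammatory monocyte genes, 7 of 8 were lower in NRS (median -1.95) and 6 of 9 in aCXCR2 (-1.17), with 0 higher. These lists thus kept 1 direction in both libraries.

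The 12 lowest held genes of other lineages as well as of macrophages. Hbb-bs, a haemoglobin gene, had -9.005 and -4.697, Cd9, a tetraspanin, -2.83 and -2.42, Cd24a -2.81 and -2.21, AA467197 -2.83 and -1.95, and the lipocalin gene Lcn2 -1.93 and -2.04. Napsa (-3.96 and -1.91), Spp1 (-3.02 and -1.78), Gpnmb (-1.77 and -1.73), Ass1 (-2.71 and -1.45), Ly6c2 (-1.29 and -1.91), Hp (-2.27 and -1.27) and Mcemp1 (-2.51 and -1.22) were the others. With each cell weighted equally the NRS ratios of Gpnmb and Ly6c2 were under 2-fold, at -0.83 and -0.82, and that of Ly6c2 became -4.77 with the stricter gate. For Lcn2 1 NRS macrophage held 50.3% of the UMIs, and the NRS ratio became 0.29 when cells of the neutrophil gate were left out on both sides.

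Other genes differed from the other gated cells in 1 library more than in the other. Pf4 was near an even ratio in NRS (0.12) and higher in the aCXCR2 macrophages (1.85). Arg1 had -2.85 in NRS and 0.16 in aCXCR2, and Fn1 -3.27 and -0.58. Of the interferon-induced genes 8 of 10 tested were at least 2-fold higher than in the other gated cells in NRS (median 1.11) and 0 of 6 in aCXCR2 (-0.0027). With the stricter Mrc1 and Folr2 gate the NRS median became 0.64. These differences between libraries were not tested.

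**Figure D4:**
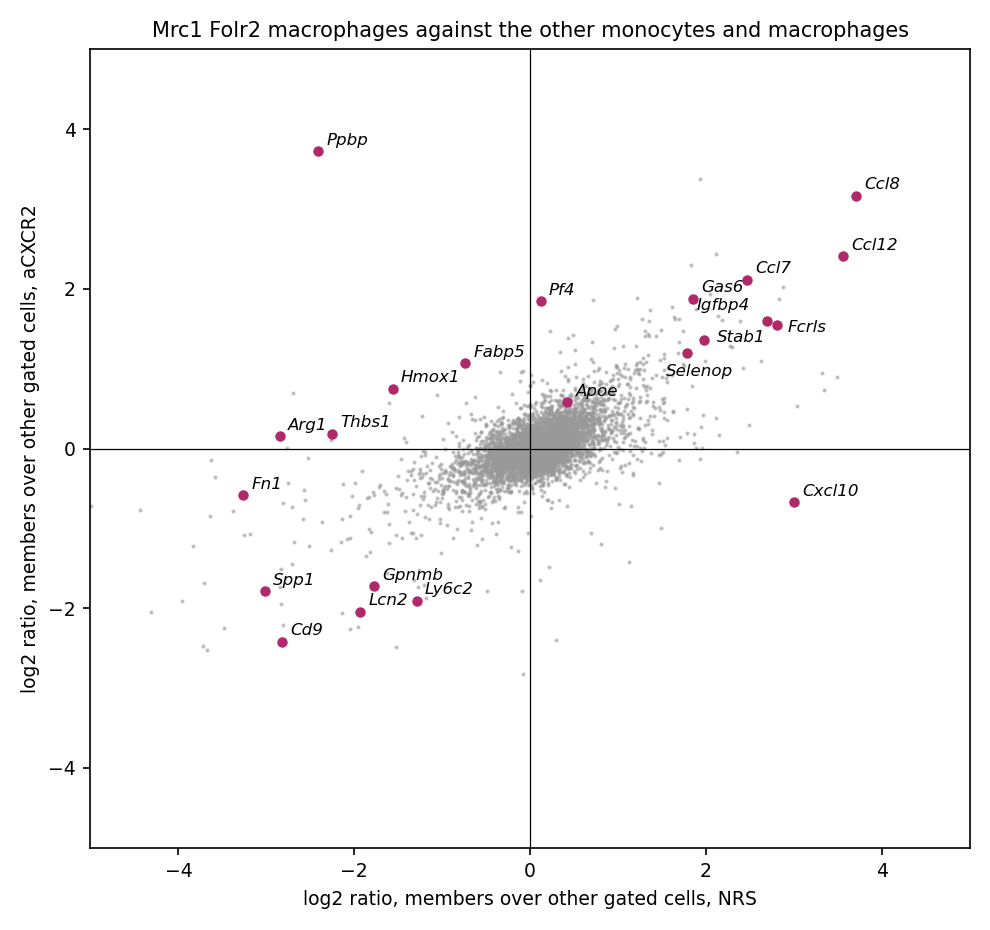
Each point is a gene, placed by the log2 ratio of its level in the macrophages over the other gated cells in NRS (horizontal) and in aCXCR2 (vertical), with 5 of 5311 genes outside the axes. Ccl8, Ccl12 and Ccl7 lie far up in both libraries, and Pf4 and Ppbp lie high in aCXCR2 alone.

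The macrophages were also divided by which of the gate's receptor genes was seen. With at least 2 UMIs counted as seen, NRS had 46 cells with both Mrc1 and Folr2, 29 with Mrc1 alone and 2 with Folr2 alone, and aCXCR2 had 85, 115 and 1. Cells with both were deeper than those with Mrc1 alone, at medians of 41556 and 27708 UMIs in NRS and 38334 and 32852 in aCXCR2, and the part of depth in these differences was not tested. In aCXCR2 the cells with both had more Ccl8 than those with Mrc1 alone (2363 and 685 CPM), more Ppbp (1209 and 378 CPM), more Ccl6 (3521 and 1898 CPM), and less Il1b (609.6 and 1215 CPM) and Cd74 (1674 and 3359.6 CPM). Pf4 (11851 and 9397 CPM), Selenop (2221 and 1991 CPM) and Arg1 (3805 and 3944 CPM) differed less. In NRS Ccl8 was alike in both (5502 and 5762 CPM), while Igf1 (498 and 290.4 CPM) and Ccl12 (198 and 58.1 CPM) were higher in cells with both. Of the 2 NRS cells with Folr2 alone, 1 held 45.4% of the Marco UMIs of the NRS macrophages and the other none, and Ccl8 was at 0 in both. The ratio of Ccl8 between the libraries was thus larger among cells with Mrc1 alone than among cells with both.

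Part of the macrophages also passed a gate on neutrophil genes (Csf3r, Cxcr2, Il1r2 and Mmp9 at 10 or more per 10000 and 5 UMIs), 19 of 77 in NRS (24.7%, 15.6 to 35.8%) and 65 of 201 in aCXCR2 (32.3%, 25.9 to 39.3%). The gelatinase gene Mmp9, which macrophages can carry as well, made up most of that signal, at 1978 and 1889 CPM in these cells and 242 and 265 CPM in the rest. In those cells Cxcr2 stood at 1.58 and 23.6 CPM and S100a8, a calcium-binding protein of neutrophils, at 126 and 1134 CPM. In the rest of the macrophages Cxcr2 stood at 0 and 3.36 CPM and S100a8 at 422 and 338 CPM. Both were thus higher inside the gate in aCXCR2, while S100a8 was lower inside it in NRS. Over all the macrophages 1 NRS cell held 66.4% of the S100a8 and 81.3% of the S100a9 UMIs. Without the cells of the neutrophil gate the log2 ratio of aCXCR2 over NRS was -2.598 for Ccl8, 1.75 for Pf4, -1.29 for Selenop, 3.37 for Arg1 and 7.01 for Ppbp, the direction being the same for each.

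**Figure D5:**
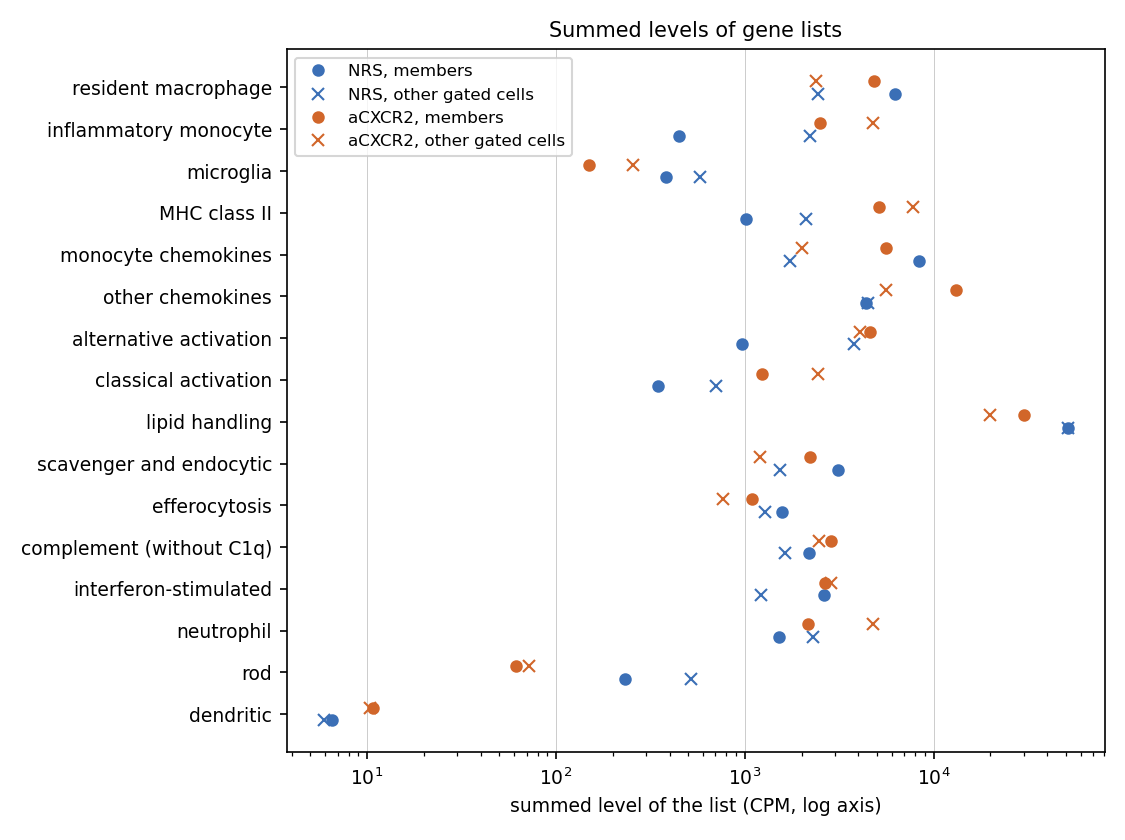
The horizontal axis is the summed CPM of each gene list, with dots for the macrophages and crosses for the other gated cells of NRS and aCXCR2. The monocyte chemokine and resident lists are higher in the macrophages of both libraries, the inflammatory monocyte list is lower, and MHC class II and inflammatory monocyte genes are higher in aCXCR2 than in NRS.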

How the data were processed

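The deposited matrices held UMI counts per gene and barcode, whole numbers with no normalization per the file headers, which give software version 3.0.0. Cell Ranger, Seurat and a human build are listed in the submitters' processing notes, although the gene IDs are mouse. The mouse build itself was not given in the sources used here. Positions come from GENCODE, which held 30934 of 31053 gene IDs, and promoters from RefSeq on GRCm38.p6. Kept barcodes had 500 or more UMIs, 200 or more genes and no more than 10% mitochondrial UMIs, and the gates were applied to them. The CPM of a class of cells in a library is its summed UMIs of a gene over all its UMIs, per 1000000. A gene was tested with at least 20 CPM on either side of a comparison, and called at least 2-fold apart. The sides were the macrophages of each library, or the macrophages and the other gated cells of the same library. To compare shares of cells with a UMI, cells were thinned to 1000 UMIs, with rods (a sum of 5 rod genes, among them Sag, Gnat1, Pdc and Gngt1, of 50 or more per 10000 and 10 UMIs) as background. A count of 0 allows up to 3 UMIs. Scrublet in scanpy 1.11.5 called 0 of 5655 and 4 of 4826 cells as doublets and so has not worked. An alternative removed the 331 and 214 highest scores, of which 1 and 4 were macrophages.

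Named genes were the 12 highest and 12 lowest ratios with at least 50 CPM in each comparison, without genes of the gates, Gm and Rik models, mitochondrial and ribosomal protein genes and, between libraries, genes over 2 times higher outside the macrophages. The list genes with the highest mean CPM, up to 4 a list, were added, and some of them, like a few other list genes, are not reported here. The macrophages, lists and rules were chosen with earlier results of these data known. The platelet list, and the alternatives without shared barcodes and without the cell with the most UMIs, were added after the data were seen. Other alternatives changed the cell filter (1000 UMIs, 500 genes and 5% mitochondrial UMIs), the second gate (at least 10 per 10000 and 8 UMIs, or 1 UMI of both genes), doublets, scaling (TMM factors from edgeR 4.0.16 in R 4.3.3, or median of ratios), the weight of cells, the CPM minimum and the thinning depth. The ratio step was tested on simulated Poisson counts of summed cells. Those counts held no variation between cells, so the test does not cover genes carried mostly by 1 cell. Software was pandas 2.3.3, scipy 1.17.1 and numpy 2.4.6 under Python 3.11.15.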

Additional observations from a re-analysis of the deposited data

Results flagged for a closer look

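For 6 named genes the log2 ratio of macrophages over other gated cells differed in sign between the libraries and lay at least 2 apart. For Arg1 and Thbs1 the aCXCR2 value was near an even ratio. The difference between the libraries was not tested. Arg1 had a log2 ratio of macrophages over other gated cells of -2.85 in NRS and 0.16 in aCXCR2. Ppbp had -2.41 and 3.72, the NRS value resting on 13 UMIs. Hmox1 had -1.56 and 0.75, and Thbs1 -2.25 and 0.19. Cxcl10 had 2.997 and -0.67, and its NRS value was 1.94 without the cell with the most UMIs and -1.99 with the stricter gate. Lyz1 had 1.13 and -1.42, and its NRS value was 0.23 without the cell with the most UMIs. The aCXCR2 value of Thbs1 was -0.54 with the stricter gate, while Arg1, Ppbp and Hmox1 kept the sign of both values in every alternative run.

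Among barcodes left out for depth or mitochondrial UMIs, 8 of 1659 in NRS (0.482%, 0.208 to 0.948%) and 19 of 725 in aCXCR2 (2.62%, 1.59 to 4.06%) passed both gates. Their median mitochondrial share was 16.6% and 19.0%. The label markers and Arg1 were ordered between the libraries as in the kept macrophages. Ccl8 stood at 5766 and 667 CPM, Selenop at 3604 and 1856 CPM, Pf4 at 825 and 5809 CPM, and Arg1 at 55.4 and 1379.5 CPM. Ppbp stood at 0 and 272 CPM.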

How the results depend on the processing

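No paired analysis was possible because each group was 1 library, and no replicate could be left out. The share of macrophages was higher in aCXCR2 than in NRS in every alternative run. It was 1.07% in NRS with the stricter cell filter, 0.442% and 1.04% (NRS and aCXCR2) with the stricter Mrc1 and Folr2 gate, 0.920% and 2.57% where both genes were seen, 1.06% and 3.04% without the neutrophil gate, and 0.354% and 0.569% with gates on cells thinned to 2000 UMIs. The count of genes at least 2-fold apart between libraries was 129 higher and 90 lower with a 50 CPM minimum, and 251 lower with 10 CPM. Against the other gated cells it was 173 higher and 111 lower in NRS with 50 CPM, 335 lower with 10 CPM, and 350 lower with cells weighted equally. In aCXCR2 it was 52 higher and 46 lower with 50 CPM, 151 lower with 10 CPM, and 152 higher and 160 lower with the stricter gate. Fewer or more genes enter with each CPM minimum, and for the others the cause was not tested. TMM factors shifted the log2 ratios by 0.04 between libraries, -0.09 in NRS and -0.02 in aCXCR2.

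Between libraries 1 named gene that was at least 2-fold apart changed its direction, Marco, to 1.34 with the stricter cell filter and 0.75 with the stricter gate. Genes under 2-fold changed theirs as well, among them Cxcl10, Cxcl9 and S100a8 (ranges -1.23 to 2.44, -3.097 to 0.73 and -0.43 to 3.56). Over the other NRS gated cells Marco became -1.36 and -1.21 with the same settings. With the stricter gate Ccl5 became -1.26 from 1.01, Cd5l -2.42 from 2.103, Cxcl10 -1.99 from 2.997 and Rsad2 -0.67 from 1.08. Without the neutrophil gate Crybb2 became 1.39 from -2.99, Lcn2 0.29 from -1.93 and S100a8 0.65 from -1.19. Without the cell with the most UMIs Cxcl9 became -0.23 from 1.05. The cause was not tested. Over the other aCXCR2 gated cells 0 named genes at least 2-fold apart changed direction. Pf4, Selenop, Arg1, Ppbp, Gas6 and Igf1 kept their direction between libraries in every alternative, with log2 ratios of 1.44 to 1.83, -1.502 to -0.99997, 3.002 to 3.37, 6.301 to 8.102, -2.41 to -1.96 and -2.17 to -1.43. Depth limits genes with few UMIs in the 77 NRS cells, where 1 cell can carry a gene.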

Other observations

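Several gene groups lay near an even ratio between the libraries. Of 11 lysosomal genes, all tested, 0 were at least 2-fold higher in aCXCR2 and 1 was lower, Ctsd (7496 and 3502 CPM), the cathepsin D gene, with a median log2 ratio of -0.302. Ctsd was under 2-fold with the stricter gate (-0.58). Ctss, the cathepsin of antigen processing, stood at 2512 and 2514 CPM, and Lgmn, the legumain gene, was higher than in the other gated cells of aCXCR2 (1.13). Of 10 complement genes outside the gates, 8 were tested and 0 were at least 2-fold apart (median 0.18). C4b, which encodes a complement component, had a log2 ratio over the other gated cells of 2.39 in NRS and 1.599 in aCXCR2. Of 11 efferocytosis genes, 7 were tested, and Gas6 was the 1 at least 2-fold apart (median -0.196), its receptor gene Mertk standing at 86.3 and 75.3 CPM. Of 9 heat shock genes, 6 were tested and 0 were at least 2-fold apart (median 0.13).

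Of 16 macrophage transcription factor genes, 14 were tested, 2 were at least 2-fold higher in aCXCR2 and 1 lower (median 0.11). Among the higher was Runx3 (17.5 and 51.1 CPM), and the lower one was Cebpa (111 and 54.6 CPM). Spi1, which encodes PU.1, stood at 388 and 406 CPM, and Spic, a factor of red pulp macrophages, at 28.9 and 57.6 CPM (0.996). Of 10 zymosan recognition genes, 8 were tested and 2 were at least 2-fold higher, the lectin gene Clec4e (136 and 468 CPM) and Cd14 (211 and 592 CPM), with 0 lower and a median of 0.33. Cd14 was under 2-fold with the stricter gate (0.75). Of 10 proliferation genes, 2 were tested and 0 were at least 2-fold apart. Mki67 stood at 38.7 and 35.3 CPM, while Top2a was at 2.85 and 2.104 CPM and Birc5 at 0.407 and 1.402 CPM, all factors of dividing cells.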
